A study of Mus musculus with 8 samples.

Results

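The 5 mouse genes described here, Grin1, Got1l1, Hapln4, A2m and Ccng2, were chosen for large differences of QKO cells from WT cells or from a line with TCF7 or TCF7L1 put back. All 5 were found among 47729 gene identifiers in the count files, and all 5 were among the 16515 genes tested. RNA was sequenced from E14TG2a mouse embryonic stem cells (129/Ola strain) after 48 h in medium with 15% serum and LIF, a cytokine that keeps these cells undifferentiated. There were 4 groups of 2 libraries. QT7 cells were QKO cells given back a single copy of TCF7, and QT7L1 cells were QKO cells given back a single copy of TCF7L1. QKO cells had no full-length TCF7, TCF7L1, TCF7L2 or LEF1, and WT cells carried every factor. The libraries of QT7, QT7L1 and QKO are clones A and B, so that each library is a single clone, and the WT libraries are 2 biological replicates with no clone given. Groups follow the sample titles. The genotype tags name the opposite factor as the one present in QT7 and in QT7L1, so the labels do not settle which factor each line carries.

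TCF/LEF proteins bind DNA and bring beta-catenin to the genes that Wnt signalling activates. Without beta-catenin they bring TLE corepressors, and in mouse embryonic stem cells TCF7L1 is known mainly as a repressor and TCF7 mainly as an activator. The 5 genes are not classical Wnt targets, and their products do unrelated work. Grin1 encodes the obligatory subunit of the NMDA-type glutamate receptor of neurons. Got1l1 encodes a relative of the cytosolic aspartate aminotransferase. Hapln4 encodes a brain link protein that ties hyaluronan to proteoglycans around neurons. A2m encodes alpha-2-macroglobulin, a secreted protease trap. Ccng2 encodes cyclin G2, an unconventional cyclin linked to exit from the cell cycle.

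Libraries held 31.57 to 43.36 M counts, and the first principal component set both QKO libraries (61.2 and 66.9) apart from the other 6 (-34.7 to -0.708). Transcripts of the targeted genes were still counted in QKO. Tcf7 was at 16.6 and 20.9 CPM (counts scaled to library size) in QT7, 10.1 and 12.7 CPM in QT7L1, 7.97 and 19.7 CPM in QKO and 59.6 and 61.9 CPM in WT, giving the lower value of each pair first. Tcf7l1 was at 22.4 and 27.4 CPM in QT7, 27.5 and 36.9 CPM in QT7L1, 38.3 and 39.1 CPM in QKO and 68.8 and 73.6 CPM in WT, in the same order. Between the single-factor lines both genes were higher in the line whose title names them, but Tcf7 in QT7 overlapped QKO and Tcf7l1 in QT7L1 lay below QKO. Counts over a whole gene do not show which part was read. Markers of fibroblasts, used as feeder layers, summed to 47.9 and 80.5 CPM in QT7, 46.3 and 59.7 CPM in QT7L1, 127 and 43.5 CPM in QKO and 96.4 and 73.2 CPM in WT over 12 genes, of which Lum was at 0. The 8 pluripotency markers summed to 4890 to 5870 CPM in the 8 libraries. Macrophage markers (6 of 6 with counts) summed to 14.3 and 9.41 CPM in QT7, 13.3 and 6.88 CPM in QT7L1, 21.2 and 26.8 CPM in QKO and 10.7 and 6.98 CPM in WT. Glial markers (5 of 7 with counts, with Aqp4 and S100b at 0) summed to 20.3 and 34.6 CPM in QT7, 31.1 and 34.9 CPM in QT7L1, 20.4 and 21.4 CPM in QKO and 27.9 and 32.8 CPM in WT. The part of these cells in the results was not tested. In bulk RNA, fewer cells of a type and less RNA per cell cannot be told apart.

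Grin1 (ENSMUSG00000026959, chromosome 2, 25291181 to 25319187 on GRCm38, minus strand) was at 8.65 and 8.86 CPM in QT7, 7.63 and 7.13 CPM in QT7L1, 1.09 and 0.416 CPM in QKO and 8.95 and 6.96 CPM in WT. The 6 libraries with a TCF factor lay between 6.96 and 8.95 CPM, and the higher QKO library was 6.41-fold below the lowest of them. The QKO level rests on 35 and 15 counts, against 286 and 307 counts in WT. On the log2 scale the QKO level differed from WT by -3.42 ± 0.36 (SE, a 10.7-fold lower level). QT7 differed from QKO by 3.56 ± 0.36 and QT7L1 from QKO by 3.31 ± 0.36. The QKO clones differed by 2.61-fold, and the replicates of the other groups by 1.02- to 1.29-fold. Without QKO replicate 1, whose count was the higher, the log2 differences from QKO were 4.38 for QT7 and 4.14 for QT7L1, and QKO differed from WT by -4.25. Markers of neurons, the cells known for Grin1, summed to 599 and 288 CPM in QT7, 172 and 175 CPM in QT7L1, 432 and 349 CPM in QKO and 307 and 334 CPM in WT (10 of 10 with counts), so their sum was not lower in QKO than in WT. Stmn2 made up much of it, at 432 and 160 CPM in QT7 and 49 and 61.8 CPM in QT7L1. It was at 209 and 184 CPM in QKO and 150 and 187 CPM in WT. The part of neurons in the Grin1 levels was not tested.

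Got1l1 (ENSMUSG00000039720, chromosome 8, 27197459 to 27223828, minus strand) was at 10.3 and 5.7 CPM in QT7, 4.48 and 6.7 CPM in QT7L1, 0.745 and 0.721 CPM in QKO and 6.26 and 9.3 CPM in WT. The QKO clones lay within 1.03-fold of each other, on 24 and 26 counts, while replicates of the other groups differed by 1.48- to 1.81-fold. QKO differed from WT by -3.41 ± 0.38 on the log2 scale, QT7 from QKO by 3.45 ± 0.38 and QT7L1 from QKO by 2.93 ± 0.38.

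Hapln4 (ENSMUSG00000007594, chromosome 8, 70083457 to 70090862, plus strand) was at 2.27 and 6.1 CPM in QT7, 5.21 and 9.26 CPM in QT7L1, 1.33 and 1.11 CPM in QKO and 11.2 and 11.7 CPM in WT. It was the only member with every library of QT7 and QT7L1 below both WT libraries, and QT7 replicate 1 was 1.7-fold above the higher QKO library. Its mean was 36.5% of the WT mean in QT7, 63% in QT7L1 and 10.6% in QKO. The log2 difference was -3.23 ± 0.47 for QKO against WT, 1.78 ± 0.47 for QT7 against QKO and 2.57 ± 0.47 for QT7L1 against QKO. QT7 against QKO was 0.9 without QT7 replicate 2 and 2.33 without QT7 replicate 1, so the size of this difference depended on the clone.

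A2m (ENSMUSG00000030111, chromosome 6, 121635376 to 121679227, plus strand) was at 59.9 and 65 CPM in QT7, 36.1 and 61.1 CPM in QT7L1, 5.65 and 5.88 CPM in QKO and 23.1 and 32 CPM in WT. Every library of QT7 and QT7L1 lay above both WT libraries, which makes its means 227% and 177% of WT in these lines and 20.9% in QKO. The log2 difference was -2.26 ± 0.26 for QKO against WT, 3.44 ± 0.27 for QT7 against QKO and 3.08 ± 0.26 for QT7L1 against QKO. Of 9 markers of liver and visceral endoderm cells, which secrete such plasma proteins, Afp, Alb and Ttr stayed under 0.1 CPM in every library and Serpina1a was at 0. The other 5 carried nearly the whole sum. The 9 together summed to 65.3 and 40.1 CPM in QT7, 29.4 and 22.2 CPM in QT7L1, 17.8 and 20.6 CPM in QKO and 19.5 and 45.6 CPM in WT. Like A2m, the sum was higher in both libraries of QT7 and of QT7L1 than in QKO. Unlike A2m, the sum in WT replicate 1 (19.5 CPM) lay between those of the QKO libraries. The part of these cells in the A2m levels was not tested. A2m has paralogs of similar sequence, and how reads mapping to several genes were counted is not given in the sources used here.

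Ccng2 (ENSMUSG00000029385, chromosome 5, 93267257 to 93276231, plus strand) was at 30.7 and 37.9 CPM in QT7, 46.6 and 44.5 CPM in QT7L1, 4.53 and 3.41 CPM in QKO and 21.8 and 31.8 CPM in WT. Both QT7L1 libraries lay above all other libraries, and QT7 overlapped WT. The log2 difference was -2.76 ± 0.22 for QKO against WT, 3.11 ± 0.22 for QT7 against QKO and 3.52 ± 0.22 for QT7L1 against QKO, with the smallest SE of the 5 genes.

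RefSeq promoters on GRCm38.p6 were matched for 2 of the 5 genes, Grin1 and Ccng2, and both are shown as the start regions of members with low levels in QKO. Each runs from 250 bases before to 50 bases after the start annotated by RefSeq, 5′ to 3′, and capitals mark matches to the motifs searched. The Ccng2 window lies inside the gene coordinates given above (93267257 to 93276231), so this RefSeq start is downstream of the gene start given there. The region before that gene start was not searched.
Grin1 (chr2:25319138-25319437, minus strand): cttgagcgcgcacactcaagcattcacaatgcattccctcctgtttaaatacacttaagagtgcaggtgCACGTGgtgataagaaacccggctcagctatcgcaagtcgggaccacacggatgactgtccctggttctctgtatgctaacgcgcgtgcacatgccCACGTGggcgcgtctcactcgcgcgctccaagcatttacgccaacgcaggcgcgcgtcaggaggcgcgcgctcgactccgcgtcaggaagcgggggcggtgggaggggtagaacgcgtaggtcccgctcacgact
Ccng2 (chr5:93267323-93267622, plus strand): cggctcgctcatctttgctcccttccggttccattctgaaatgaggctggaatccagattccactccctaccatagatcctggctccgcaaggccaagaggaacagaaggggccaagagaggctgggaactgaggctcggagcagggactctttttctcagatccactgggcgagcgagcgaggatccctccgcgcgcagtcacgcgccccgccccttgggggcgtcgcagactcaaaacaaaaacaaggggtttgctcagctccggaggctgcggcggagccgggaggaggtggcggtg
The search covered CTTTGA, the core of the TCF/LEF site, ACGTG, the core of the hypoxia response element, GTAAACA, a FOXO site, and TTCNNNGAA, a STAT site, on both strands. Grin1 had 4 matches, all to ACGTG, which overlap in pairs because CACGTG reads the same on both strands, starting at bases 70 and 166 of the window. Ccng2 had none of the 4 motifs. ACGTG occurred in 19.6% of 32851 RefSeq promoters of this length, CTTTGA in 16%, TTCNNNGAA in 8.3% and GTAAACA in 3.65%. A match is a description and no site, and an absent motif says only that these letters are not in this window.

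**Figure D1:**
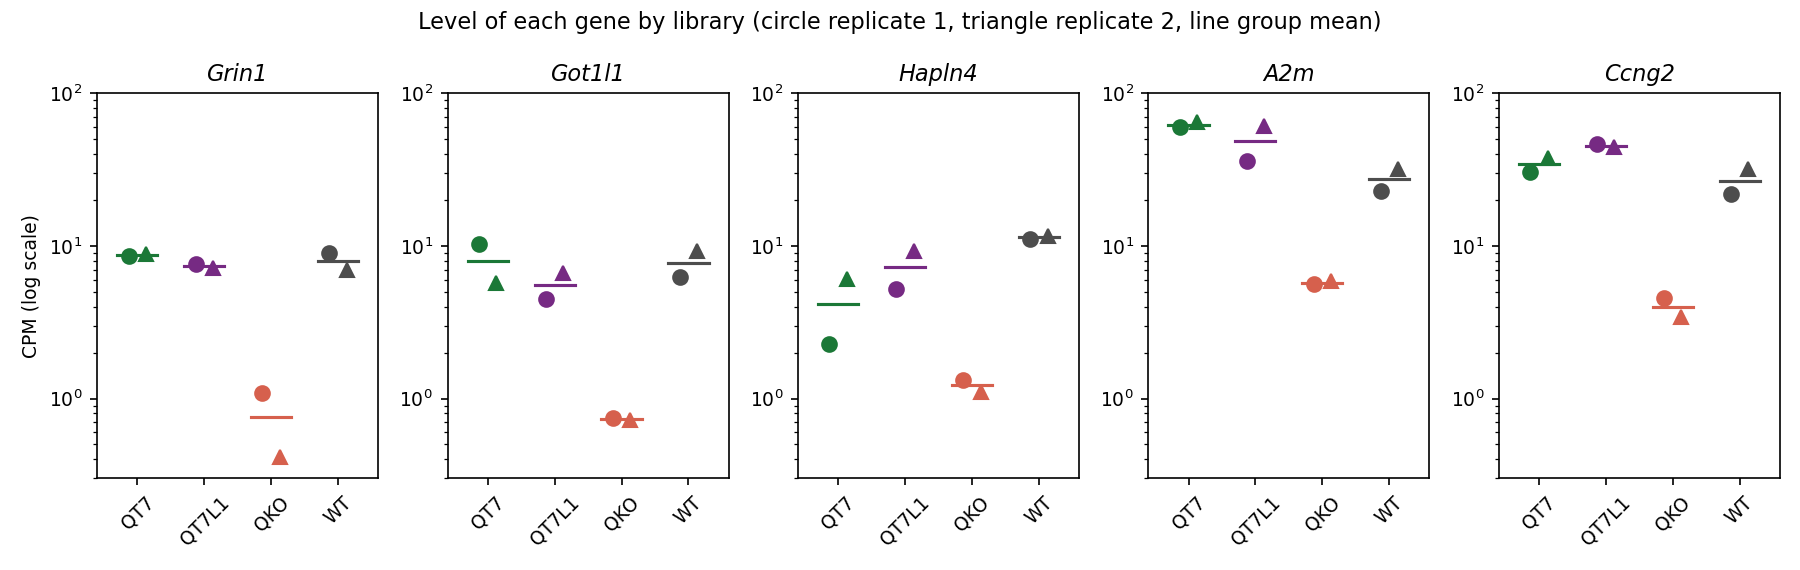
Level of each of the 5 genes in CPM (log axis) in QT7, QT7L1, QKO and WT; circles are replicate 1, triangles replicate 2 and lines the mean of the 2 libraries. Both QKO libraries sit below the other 6 in every panel, with the narrowest gap, 1.7-fold, for Hapln4.

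For all 5 genes both QKO libraries lay below the other 6, an order that 21.5% of the 16515 tested genes also showed. Libraries of the groups compared did not overlap in 69.4% of genes for QKO against WT, 63.2% for QT7 against QKO and 71% for QT7L1 against QKO. Since the members were chosen on these contrasts, nothing is read from these shares. At an adjusted p under 0.05 (edgeR quasi-likelihood test, Benjamini-Hochberg over the genes tested), 26.4% of genes were called in QKO against WT, 26.9% in QT7 against QKO and 29.7% in QT7L1 against QKO. The shares called lower were 14.7% in QKO against WT, 12.1% in QT7 against QKO and 13.9% in QT7L1 against QKO. Counted from the lowest log2 difference in QKO against WT, Grin1 ranked 48 of 16515, Got1l1 50, Hapln4 62, Ccng2 126 and A2m 281. Counted from the highest in QT7 against QKO, Grin1 ranked 32, Got1l1 38, A2m 39, Ccng2 78 and Hapln4 529. Counted likewise in QT7L1 against QKO, Ccng2 ranked 38, Grin1 50, A2m 65, Got1l1 88 and Hapln4 149.

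Levels were compared between genes only per kilobase of merged exons. On that scale Ccng2 was at 4.91 ± 1.3 CPM per kb in WT (SD, n = 2), Got1l1 at 4.27 ± 1.18, A2m at 3.92 ± 0.901, Hapln4 at 2.92 ± 0.0969 and Grin1 at 0.82 ± 0.145. The first 3 of this order did not differ beyond their spread. In QKO the values were 0.821 ± 0.0231 CPM per kb for A2m, 0.727 ± 0.145 for Ccng2, 0.402 ± 0.00931 for Got1l1, 0.311 ± 0.0406 for Hapln4 and 0.0774 ± 0.0489 for Grin1. Grin1 was thus the lowest of the 5 per length in both QKO and WT.

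The contrasts that the choice of genes did not name ask whether the levels in the single-factor lines differ from WT and from each other. They use the same QT7, QT7L1 and WT libraries that entered the choice, and since the libraries are clones or cultures of unstated independence, p-values measure the spread between these samples only. Of the 5 genes 1, A2m, was higher in QT7 than in WT at an adjusted p under 0.05, where 2.37% of genes were called higher, 2.25% lower and 4.62% in either direction. None was called in QT7L1 against WT, where the share of genes called was 0.745% (0.297% higher and 0.448% lower), or in QT7 against QT7L1, where it was 0.00606%. That last share is a single gene, Gm47283, which was lower in QT7 than in QT7L1 and is named here after its values were seen. Libraries did not overlap for 2 of the 5 genes in QT7 against WT, 3 in QT7L1 against WT and 2 in QT7 against QT7L1, where 47.6%, 50.7% and 40.8% of all genes did not. At an unadjusted p under 0.05 the counts were 2, 2 and 0 of the 5 genes in QT7 against WT, QT7L1 against WT and QT7 against QT7L1, where 20.2%, 15.4% and 11.1% of all genes passed. DESeq2 (Wald test) also called 2, 2 and 0, where it called 7.86%, 4.01% and 1.39% of all genes with an adjusted p. In the authors' deposited tables the adjusted p called 2, 2 and 0 as well, where 4.47%, 1.78% and 0.826% of all genes passed.

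A2m averaged 62.5 ± 3.63 CPM in QT7 and 27.5 ± 6.32 CPM in WT (SD, n = 2 each), a log2 difference of 1.18 ± 0.24 (edgeR adjusted p = 0.032; 95% interval 0.64 to 1.72, or 1.56- to 3.28-fold). The call ended, with edgeR adjusted p between 0.0507 and 0.212, when any WT, QKO or QT7 library was left out. A2m in QT7L1 was 0.82 ± 0.24 from WT on the log2 scale (edgeR adjusted p = 0.157; DESeq2 adjusted p = 0.00916; adjusted p = 0.0149 in the authors' deposited table). Between QT7 and QT7L1 it differed by 0.36 ± 0.23 (edgeR adjusted p = 0.582; 95% interval -0.17 to 0.89).

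Hapln4 averaged 4.18 ± 2.7 CPM in QT7 and 11.5 ± 0.38 CPM in WT, a log2 difference of -1.45 ± 0.42 (95% interval -2.41 to -0.49). This did not pass with edgeR (adjusted p = 0.0909) and passed with DESeq2 (adjusted p = 0.00319) and in the authors' deposited table (adjusted p = 0.00317). The interval leaves out equality at the level of a single test, and the value did not survive correction over the genes tested. Without QT7 replicate 2, which leaves 1 clone that is assumed to vary like the other groups, the difference from WT was -2.33 (edgeR adjusted p = 0.00208) and that from QT7L1 was -1.67 (edgeR adjusted p = 0.0153). Without QT7 replicate 1 they were -0.91 (edgeR adjusted p = 0.182) and -0.25 (edgeR adjusted p = 1). With both clones Hapln4 in QT7 differed from QT7L1 by -0.79 ± 0.42 (edgeR adjusted p = 0.524). In QT7L1 it averaged 7.23 ± 2.86 CPM and differed from WT by -0.67 ± 0.42 (edgeR adjusted p = 0.491).

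Ccng2 averaged 45.5 ± 1.52 CPM in QT7L1 and 26.8 ± 7.1 CPM in WT, a log2 difference of 0.76 ± 0.2 (95% interval 0.33 to 1.2). It did not pass with edgeR (adjusted p = 0.115) and passed with DESeq2 (adjusted p = 0.00762) and in the authors' deposited table (adjusted p = 0.0124). Without QT7 replicate 1 the edgeR adjusted p was 0.0499. In QT7 it averaged 34.3 ± 5.08 CPM, 0.35 ± 0.2 from WT (edgeR adjusted p = 0.353) and -0.41 ± 0.19 from QT7L1 (edgeR adjusted p = 0.478; 95% interval -0.84 to 0.03).

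Grin1 and Got1l1 came closest to their WT levels. Grin1 in QT7 differed from WT by 0.14 on the log2 scale (95% interval -0.52 to 0.8; edgeR adjusted p = 0.848) and in QT7L1 by -0.11 (-0.77 to 0.56; edgeR adjusted p = 0.903). For Got1l1 the difference from WT was 0.04 in QT7 (-0.67 to 0.75; edgeR adjusted p = 0.966) and -0.48 in QT7L1 (-1.2 to 0.24; edgeR adjusted p = 0.526). Between QT7 and QT7L1 Grin1 differed by 0.25 ± 0.3 and Got1l1 by 0.52 ± 0.33 (edgeR adjusted p = 0.785 and 0.565). As ratios to WT, the intervals of Grin1 run over 0.698 to 1.74 in QT7 and 0.587 to 1.47 in QT7L1, and those of Got1l1 over 0.627 to 1.69 in QT7 and 0.434 to 1.18 in QT7L1. Grin1 and Got1l1 thus overlapped WT in both lines, whereas the A2m libraries lay above WT in both lines and those of Hapln4 below. Of all genes, 47.6% did not overlap WT in QT7 and 50.7% did not in QT7L1, so lack of overlap alone does not set a member apart.

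**Figure D2:**
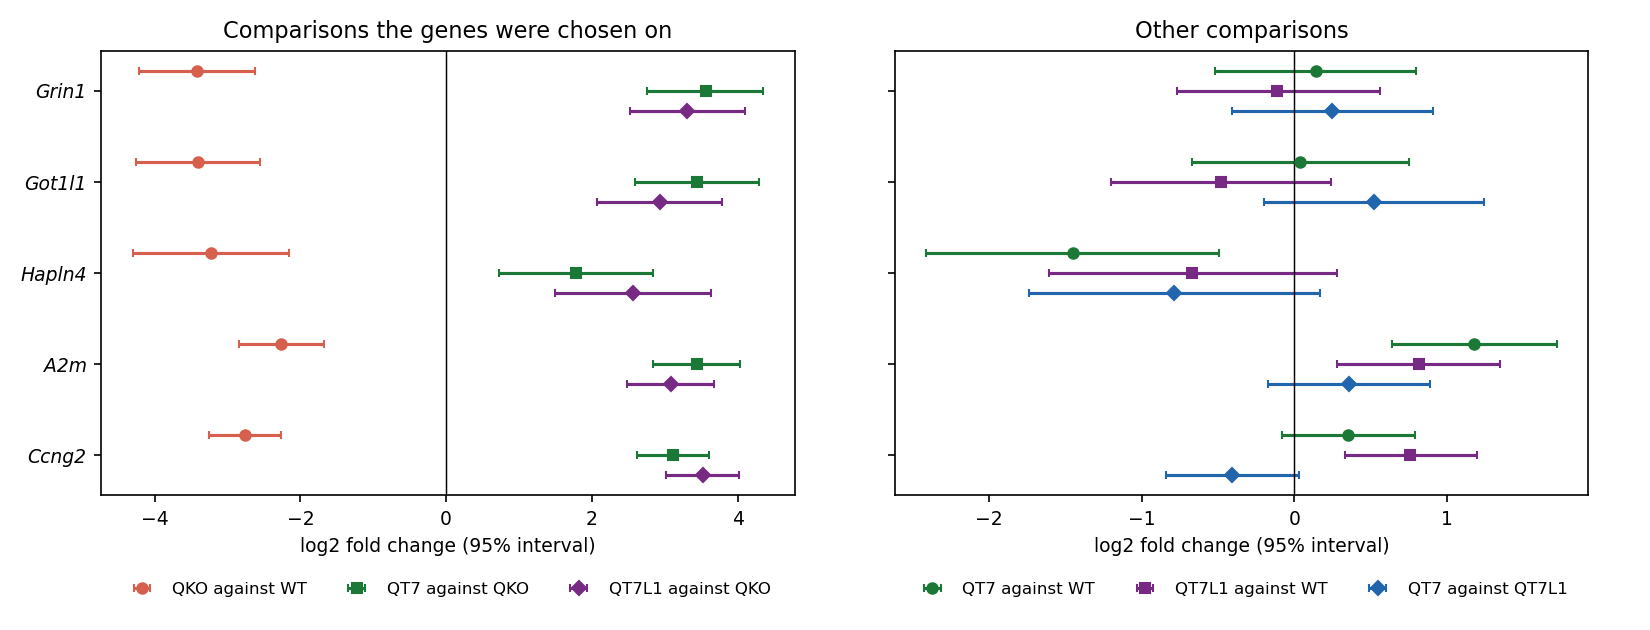
Log2 fold changes with 95% intervals for the 5 genes, first-named group over the second; the left panel holds the comparisons the genes were chosen on and the right panel the others, on different axis ranges. In the right panel the A2m intervals against WT lie above 0 and the Hapln4 interval of QT7 against WT lies below it, while those of Grin1 and Got1l1 span 0.

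Across the 8 libraries the log2 CPM values of the 5 genes followed each other with Pearson r from 0.66 (A2m and Hapln4) to 0.95 (Ccng2 with Grin1 and with A2m). These are descriptions over 4 groups of 2 that share the low QKO libraries. The genes nearest to each member in pattern, among 11205 candidates, had r of 0.984 or more over the same 8 libraries. For Grin1 they were Lrig3, Chst11 and Hbp1, for Got1l1 Lipa, Ralgps1 and Depdc1b, for Hapln4 Kcnj10, Tcaf1 and Kdf1, for A2m Chrna4 and Snx2, and for Ccng2 Zfp395, Pxmp4 and Ablim1. Each differed less between QKO and WT than the member it followed, but the members were chosen for large differences of QKO and these genes were not. Lipa, the lysosomal acid lipase, was at 14.9 and 10.9 CPM in QT7, 8.63 and 12.1 CPM in QT7L1, 3.44 and 3.44 CPM in QKO and 11.4 and 15.8 CPM in WT, which repeats the order of the single Got1l1 libraries within QT7, QT7L1 and WT. Chrna4, a nicotinic acetylcholine receptor subunit, had the pattern of A2m with levels above WT in QT7 (4.41 and 5.82 CPM) and QT7L1 (3.76 and 4.96 CPM), 0.745 and 0.721 CPM in QKO and 2 and 3.38 CPM in WT. Lipa and Chrna4 were picked for likeness over these same 8 libraries, so the shared patterns follow from the choice and nothing is read from them.

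The 5 genes lie on 4 chromosomes, with Got1l1 and Hapln4 on chromosome 8 far from each other. The nearest tested gene on either side was compared for each. At Grin1 the neighbours were Anapc2, a subunit of the anaphase-promoting complex that ends 5265 bases away, and the noncoding gene AA543186. Neither was called in QKO against WT (log2 -0.14 ± 0.09 and -0.11 ± 0.47; edgeR adjusted p = 0.316 and 0.886). Anapc2 rose by 0.34 ± 0.1 in QT7L1 against QKO (edgeR adjusted p = 0.023), a call that ended without any QKO or QT7L1 library (0.0727 to 0.13). Grin1os, annotated antisense to Grin1, had 0 counts in every library, below a floor of 3 counts. At Got1l1, Adrb3, the beta-3 adrenergic receptor 1947 bases away, was at 12 and 6.67 CPM in QT7, 6.18 and 5.12 CPM in QT7L1, 7.04 and 10.4 CPM in QKO and 8.42 and 8.68 CPM in WT, a log2 difference of 0.03 ± 0.29 between QKO and WT (edgeR adjusted p = 0.956). Rab11fip1, a Rab11 effector on the other side of Got1l1, fell by 0.89 in QKO against WT on the log2 scale (SE 0.12, edgeR adjusted p = 0.00114).

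Hapln4 and Ncan lie tail to tail, 2222 bases apart on opposite strands. Ncan encodes neurocan, a brain proteoglycan that binds hyaluronan, the same ligand that Hapln4 binds. Ncan was at 2.88 and 7.82 CPM in QT7, 6.51 and 10.8 CPM in QT7L1, 3.29 and 3.6 CPM in QKO and 14.2 and 15.8 CPM in WT. Like Hapln4, it was lower in replicate 1 than in replicate 2 of both QT7 and QT7L1 and highest in WT, with r = 0.95 over the 8 libraries. Unlike Hapln4, Ncan in QT7 replicate 1 lay below both QKO libraries. Ncan did not pass in QT7 against QKO (0.64 ± 0.43, edgeR adjusted p = 0.306). Its rise in QT7L1 against QKO (1.33 ± 0.43, edgeR adjusted p = 0.0472) lost its call when any WT, QKO or QT7L1 library was left out. The ratio of Hapln4 to Ncan counts was 0.788 and 0.779 in QT7, 0.8 and 0.856 in QT7L1, 0.406 and 0.308 in QKO and 0.79 and 0.745 in WT. It thus lay between 0.745 and 0.856 in the 6 libraries with a TCF factor, although the level of Hapln4 ranged between 2.27 and 11.7 CPM among them, and was lower in both QKO libraries. Hapln4 was chosen for large differences of QKO and Ncan was not, so nothing is read from the lower ratio there. In QKO it rests on 43 and 40 Hapln4 counts. Ncan fell by 2.12 in QKO against WT (SE 0.43, edgeR adjusted p = 0.00976), a call that ended without WT replicate 2 (0.0655), QKO replicate 1 (0.073) or QKO replicate 2 (0.0774). Tm6sf2, on the other side of Hapln4, was not called in QKO against WT (-1.18 ± 0.43, edgeR adjusted p = 0.0692). The kit was stranded, but the strand setting of the counting is not given in the sources used here.

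Ccng2 lies 60761 bases from Ccni, which encodes cyclin I and belongs to the same branch of cyclins. Ccni was at 145 and 155 CPM in QT7, 135 and 185 CPM in QT7L1, 81.7 and 79.5 CPM in QKO and 120 and 136 CPM in WT. It fell by 0.67 in QKO against WT (SE 0.14, edgeR adjusted p = 0.008) and rose in QT7 against QKO (0.9 ± 0.14, edgeR adjusted p = 0.00228) and in QT7L1 against QKO (0.99 ± 0.14, edgeR adjusted p = 0.00136). The fall lost its call without WT replicate 2 (0.072) or QKO replicate 2 (0.065). The pseudogene Kat2b-ps on the other side was at 0.782 CPM in QT7, 0.395 CPM in QT7L1, 0.734 CPM in QKO and 0.334 CPM in WT, and was not called in QKO against WT (edgeR adjusted p = 0.0676). The tested neighbours of A2m were distant, at 161697 bases (Iqsec3) and 629492 bases (M6pr), and neither was called in QKO against WT (edgeR adjusted p = 0.197 and 0.162). Iqsec3 rose in QT7 against QKO (3.37 ± 0.77, edgeR adjusted p = 0.0111), at 1.2 and 0.391 CPM in QT7 and 0.0621 and 0.0832 CPM in QKO, a call lost when either QKO library (0.0732 and 0.0785) or QT7 replicate 1 (0.0557) was left out.

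**Figure D3:**
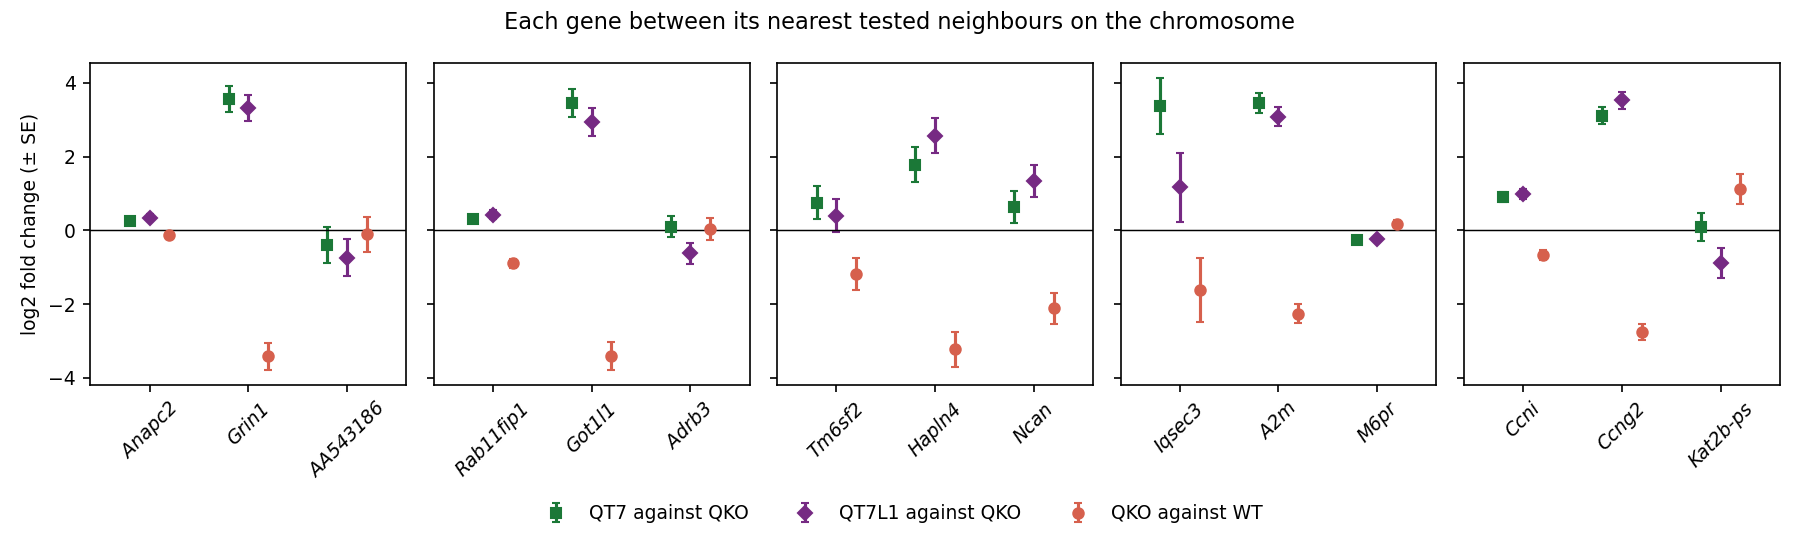
Log2 fold changes (± SE) of each gene and of the nearest tested gene on either side, for QT7 against QKO, QT7L1 against QKO and QKO against WT; genes are in chromosome order and not to scale. Ncan beside Hapln4 and Ccni beside Ccng2 have the sign of the member with smaller values. So do Rab11fip1 beside Got1l1, Tm6sf2 beside Hapln4 and Iqsec3 beside A2m, of which Tm6sf2 and Iqsec3 were not called in QKO against WT. In QT7 against QKO Ncan, Rab11fip1 and Tm6sf2 were not called, and in QT7L1 against QKO Tm6sf2 and Iqsec3 were not. Anapc2, Adrb3 and M6pr stayed within 0.63 of 0 in these comparisons.

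Relatives and partners of the 5 genes were read from lists chosen with earlier results of these data known. Of 17 other ionotropic glutamate receptor subunits 10 were tested. In QKO against WT 3 of them fell and 7 did not pass, with a median log2 difference of -0.57 against -0.01 over all tested genes; the shares of all genes called lower and higher were 14.7% and 11.7%. Grin2d, another NMDA receptor subunit, was at 1.12 and 1.93 CPM in QT7, 1.97 and 2.13 CPM in QT7L1, 0.807 and 0.832 CPM in QKO and 2.47 and 2.02 CPM in WT. It fell in QKO (-1.45 ± 0.34, edgeR adjusted p = 0.0132) and rose in QT7L1 against QKO (1.32 ± 0.35, edgeR adjusted p = 0.0175), and each call ended without any library of the groups compared (edgeR adjusted p = 0.0504 to 0.0953). The AMPA receptor subunit Gria4 went another way: it was at 0.179 and 0.207 CPM in QT7, 0.454 and 0.213 CPM in QT7L1, 0.248 and 0.416 CPM in QKO and 1.94 and 1.11 CPM in WT. Its QT7 and QT7L1 libraries thus lay near QKO, at a log2 difference from QKO of -0.78 ± 0.58 in QT7 and 0 ± 0.54 in QT7L1 (edgeR adjusted p = 0.345 and 0.998). The call of Gria4 in QKO ended without WT replicate 1 (0.0722), QKO replicate 1 (0.081) or QKO replicate 2 (0.0521).

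Grin1 is a textbook target of the neuronal repressor REST. Rest itself was at 275 and 278 CPM in QT7, 309 and 295 CPM in QT7L1, 364 and 380 CPM in QKO and 418 and 380 CPM in WT. It did not pass in QKO against WT (-0.1 ± 0.09, edgeR adjusted p = 0.436). It fell in QT7 against QKO (-0.43 ± 0.09, edgeR adjusted p = 0.00741; 0.0622 without QKO replicate 2) and in QT7L1 against QKO (-0.3 ± 0.09, edgeR adjusted p = 0.0291), the second call ending without any QKO or QT7L1 library (0.0847 to 0.178). Of 7 genes of the REST complex 2 rose in QKO and 5 did not pass. In QKO against WT 11.7% of all genes were called higher and 14.7% lower. The histone deacetylase Hdac1 rose by 0.53 ± 0.11 there (edgeR adjusted p = 0.00821; 0.0735 without WT replicate 2 and 0.0553 without QKO replicate 1). Of 18 tested neuronal genes known as REST targets 2 rose in QKO, 4 fell and 12 did not pass, with a median of -0.08, and 1 rose and 17 did not pass in QT7 against QKO, with a median of 0.2. In QT7L1 against QKO 1 rose, 2 fell and 15 did not pass, with a median of -0.3. Over all genes 14.8% and 15.9% were called higher in QT7 and QT7L1 against QKO, and 12.1% and 13.9% lower. The planar polarity cadherin Celsr3 fell by 0.88 in QKO (SE 0.15, edgeR adjusted p = 0.00381), and Stmn3, a tubulin-binding stathmin, rose by 1.05 ± 0.18 (edgeR adjusted p = 0.00356). The vesicle protein Syp fell by 1.05 (edgeR adjusted p = 0.0211; 0.096 to 0.127 without WT replicate 1, QKO replicate 1 or QKO replicate 2).

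The cellular relatives of Got1l1 did not share its pattern. Got1, the cytosolic aspartate aminotransferase, was at 249 and 294 CPM in QT7, 316 and 318 CPM in QT7L1, 280 and 312 CPM in QKO and 302 and 318 CPM in WT, and differed between QKO and WT by -0.07 ± 0.1 (edgeR adjusted p = 0.671). Its mitochondrial counterpart Got2 differed by -0.06 ± 0.09 (edgeR adjusted p = 0.638). Of the 8 genes of the malate-aspartate shuttle list 2 rose in QKO against WT, none fell and 6 did not pass, where Got1l1 was lower: the malate dehydrogenase Mdh2 by 0.49 ± 0.1 (edgeR adjusted p = 0.00827) and the oxoglutarate carrier Slc25a11 by 0.53 ± 0.11 (edgeR adjusted p = 0.00642). The Mdh2 call ended without QKO replicate 1 (0.0502) or 2 (0.0532), and that of Slc25a11 without WT replicate 2 (0.0576) or QKO replicate 2 (0.0725). In QT7 against QKO 3 of the 8 fell and in QT7L1 against QKO 4 did, where 12.1% and 13.9% of all genes were called lower. In QKO against WT 11.7% of all genes were called higher and 14.7% lower.

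Among 11 tested genes of hyaluronan handling, Ncan included, 1 rose, 3 fell and 7 did not pass in QKO against WT, with a median of -0.38. In each of QT7 and QT7L1 against QKO 4 rose, 1 fell and 6 did not pass, with medians of 0.48 and -0.05. Of all genes 14.8% and 15.9% were called higher in these contrasts, and 12.1% and 13.9% lower. In QKO against WT the shares were 11.7% higher and 14.7% lower. The hyaluronidase Hyal1 was at 6.28 and 7.22 CPM in QT7, 6.6 and 6.58 CPM in QT7L1, 3.69 and 2.69 CPM in QKO and 5.7 and 6.17 CPM in WT. It fell in QKO (-0.9 ± 0.23, edgeR adjusted p = 0.0178) and rose in QT7 (1.08 ± 0.23, edgeR adjusted p = 0.00763) and QT7L1 (1.05 ± 0.23, edgeR adjusted p = 0.00818) against QKO; without QKO replicate 2 these calls ended (0.145, 0.0805 and 0.0834), and the first also without WT replicate 2 (0.107). Hapln3, the link protein relative that could be tested, had the opposite sign to Hapln4 in QKO (0.82 ± 0.27, edgeR adjusted p = 0.0445), a call that ended when a library of WT, QKO or QT7L1 was left out (0.0655 to 0.262). Hapln1 and Hapln2 did not pass the filter on low counts.

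The receptor that clears alpha-2-macroglobulin was, like A2m, lower in QKO than in the other groups, but in QT7L1 it lay within the WT range. Lrp1 was at 257 and 271 CPM in QT7, 192 and 197 CPM in QT7L1, 95.4 and 79.2 CPM in QKO and 136 and 201 CPM in WT. It fell by 0.95 in QKO against WT (SE 0.17, edgeR adjusted p = 0.00474) and rose in QT7 (1.6 ± 0.17, edgeR adjusted p = 0.000929) and QT7L1 (1.16 ± 0.17, edgeR adjusted p = 0.00188) against QKO, and these calls held without any single library. Its chaperone Lrpap1 went the other way in QKO (0.66 ± 0.11, edgeR adjusted p = 0.00265). Complement C3, a member of the A2m protein family, was low throughout, at 1.71 and 1.7 CPM in QT7, 1.06 and 1.67 CPM in QT7L1, 0.0621 and 0.194 CPM in QKO and 0.407 and 0.794 CPM in WT. It rose in QT7 (3.67 ± 0.55, edgeR adjusted p = 0.00197) and QT7L1 (3.35 ± 0.56, edgeR adjusted p = 0.00254) against QKO, and fell in QKO against WT (-2.2 ± 0.58, edgeR adjusted p = 0.0215; 0.182 without WT replicate 2 and 0.125 without QKO replicate 1). Cd109, a membrane-bound family member, fell in QKO (-1.71 ± 0.35, edgeR adjusted p = 0.00688; 0.0735 without QKO replicate 2) and did not pass in QT7 (0.13 ± 0.35) or QT7L1 (-0.22 ± 0.35) against QKO (edgeR adjusted p = 0.812 and 0.673). Of the 6 tested genes of this list 3 fell, 1 rose and 2 did not pass in QKO against WT. Over all genes 14.7% were called lower and 11.7% higher in this contrast.

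The closest relative of Ccng2, Ccng1, is a p53 target. It was at 243 and 246 CPM in QT7, 218 and 247 CPM in QT7L1, 172 and 162 CPM in QKO and 242 and 250 CPM in WT, a fall in QKO of 0.55 on the log2 scale (SE 0.09, edgeR adjusted p = 0.00341). Of the 11 genes of the cyclin G list 2 fell (Ccng1 and Ccni), 1 rose and 8 did not pass in QKO against WT. Their median was 0.11, and 14.7% of all genes were called lower and 11.7% higher in this contrast. Ccng2 is also known to be induced by FOXO factors. Of 18 FOXO factors and FOXO-responsive genes 8 fell, none rose and 10 did not pass in QKO against WT, with a median of -0.51. The shares of all genes called in this contrast were 14.7% lower and 11.7% higher. In QT7 against QKO 7 rose, 1 fell and 10 did not pass. In QT7L1 against QKO 10 rose and 8 did not pass. In these contrasts 14.8% and 15.9% of all genes were called higher, and 12.1% and 13.9% lower. Sesn3, a stress-induced regulator of mTOR signalling, was at 21.3 and 21.9 CPM in QT7, 24.2 and 26.4 CPM in QT7L1, 11.1 and 11.2 CPM in QKO and 30.6 and 38 CPM in WT. It fell by 1.62 in QKO against WT (SE 0.15, edgeR adjusted p = 0.000462). The insulin receptor gene Insr fell by 1.34 (SE 0.17, edgeR adjusted p = 0.00114), the cell cycle inhibitor Cdkn1b by 0.98 (SE 0.16, edgeR adjusted p = 0.00261) and the insulin receptor substrate Irs2 by 0.98 (SE 0.16, edgeR adjusted p = 0.00325). Sesn3, Insr and Cdkn1b rose in both QT7 and QT7L1 against QKO, by 0.81 to 1.23 on the log2 scale. Irs2 did not pass in QT7 (0.23 ± 0.16, edgeR adjusted p = 0.33) or QT7L1 (0.34 ± 0.16, edgeR adjusted p = 0.138) against QKO. It was lower in QT7 than in WT (-0.75 ± 0.16, edgeR adjusted p = 0.0328), a call lost without WT replicate 1 (0.264) or QT7 replicate 1 (0.0818) and when either library of QKO or QT7L1 was left out (0.0537 to 0.0665). The rise of Cdkn1b in QT7 lost its call without QKO replicate 2 (0.0572). These comparisons share the QKO libraries.

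Of 16 Wnt/beta-catenin targets 3 rose, 6 fell and 7 did not pass in QKO against WT, with a median of -0.12. The 6 that fell include Lef1 and Tcf7 (-2.13 ± 0.37), which are themselves targeted in QKO cells. The 3 that rose include Axin2 (1.31 ± 0.24). Over all genes 11.7% were called higher and 14.7% lower in this contrast. Nkd2, a feedback antagonist, fell by 2.19 (SE 0.31, edgeR adjusted p = 0.00154) and rose in QT7L1 against QKO (1.85 ± 0.31, edgeR adjusted p = 0.0025). Nkd2 also rose in QT7 against QKO (1.31 ± 0.31, edgeR adjusted p = 0.0118), a call lost when either QKO library was left out. The receptor gene Fzd7 fell by 0.82 (SE 0.09, edgeR adjusted p = 0.000771), while Ccnd1 rose by 0.79 ± 0.13 (edgeR adjusted p = 0.00337). The fall of Lef1, itself deleted in these cells, was 2.39 (SE 0.46, edgeR adjusted p = 0.00596; 0.062 without QKO replicate 2).

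**Figure D4:**
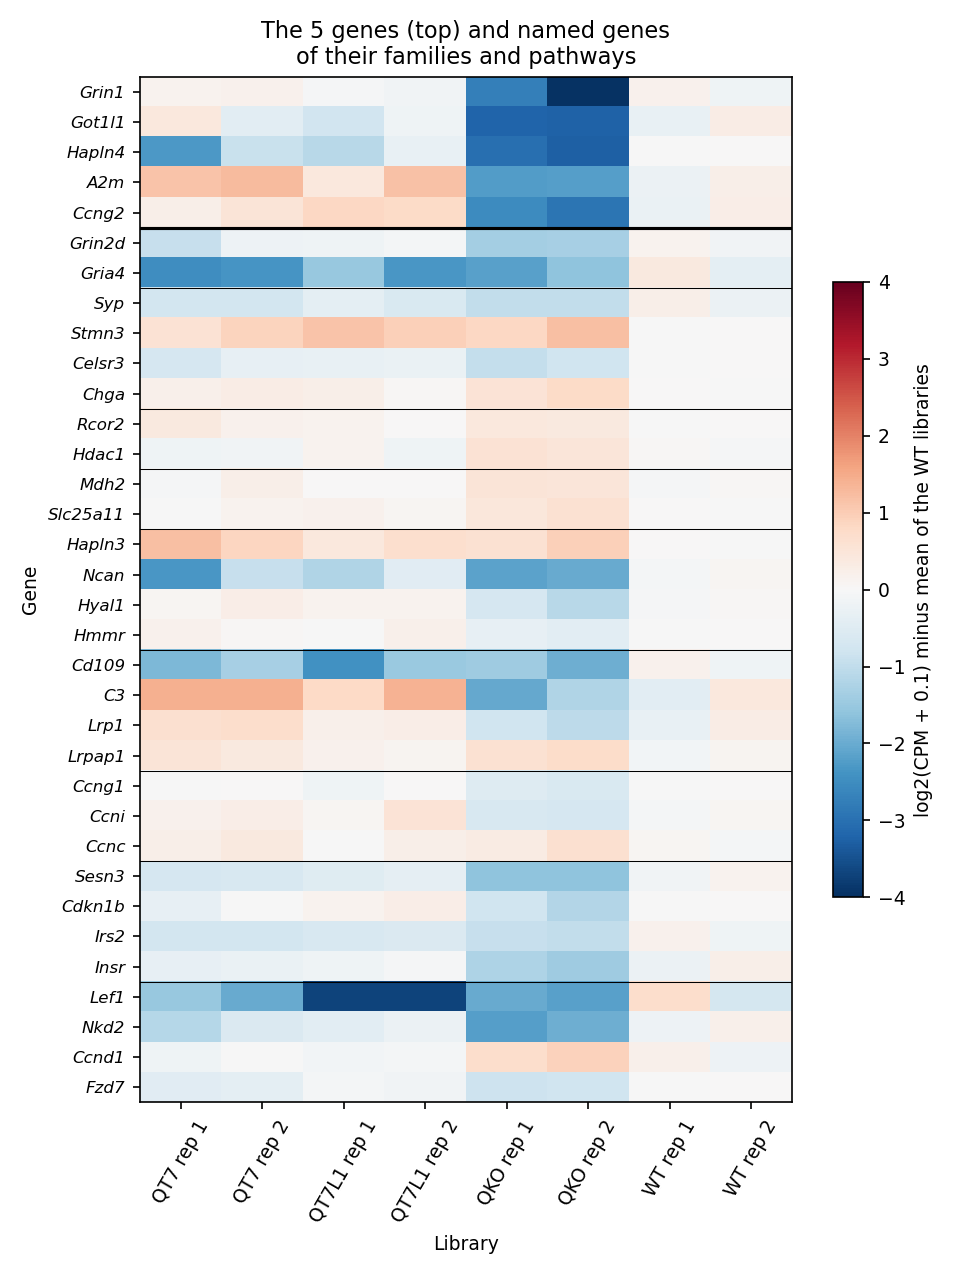
Heat map of the 5 genes (top rows) and of genes named from their family and pathway lists, as log2(CPM + 0.1) minus the mean of the WT libraries, by library; blue is below and red above WT, and the scale ends at 4. In each row of the 5 genes the QKO columns are the deepest blue, and A2m and C3 are red in QT7 and QT7L1. Lrp1 is above WT in QT7 (log2 difference 0.65) and close to WT in QT7L1 (0.21). Other rows, such as Stmn3 and Hapln3, are also above WT in both lines.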

How the data were processed

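RNA from 8 libraries was analysed. The submitters' processing notes list bcl2fastq 1.8.4, STAR 2.4.0f1, HTSeq and DESeq2 2.1.8.3, with builds mm10 and GRCm38. The authors deposited whole-number counts per Ensembl gene for each library. Their deposited comparison tables hold a mean signal, log2 fold changes with standard errors, a test score, and p-values with adjusted p-values; they gave gene symbols and the values credited to them. The count analysis used edgeR 4.0.16 under R 4.3.3: filterByExpr left 16515 genes, TMM factors were 0.9549 to 1.028, and all 8 libraries entered 1 robust quasi-likelihood fit (4 residual degrees of freedom). Tests are 2-sided F tests, adjusted by Benjamini-Hochberg and called under 0.05; fold changes are first-named over second-named group, the SE is the absolute log2 difference over the square root of F, and 95% intervals use the fit's degrees of freedom. CPM use TMM-scaled library sizes; log2 CPM used a prior count of 2. DESeq2 1.42.0 was an alternative. Coordinates and exon lengths come from GENCODE M21, where 47224 of 47729 identifiers were found. Replicates correlated at 0.9815 to 0.9912 and their counts were further apart than sampling allows (chi-square over degrees of freedom 17.8 to 56). The members and lists were chosen with earlier results of these data known. Named genes are the members, their nearest tested neighbours, the 3 genes nearest in pattern (mean log2 CPM of at least 1), and up to 4 called genes per list with the smallest adjusted p in QKO against WT. Rest, Got1, Got2, Axin2, Tcf7, Stmn2 and the link protein genes without a call are named outside that rule, after their values were seen. Some genes that the rule names are not reported here.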

Additional observations from a re-analysis of the deposited data

How the results depend on the processing

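Each refit gives a value per member and contrast, and the counts here are of such values, not of separate fits. Over the 3 contrasts the choice of genes did not name, 160 values kept direction and side of the threshold, while 10 gained a call, 6 lost one and 4 turned direction. QT7 against WT: A2m had 0.96 to 1.44 and Hapln4 -2.33 to -0.91 on the log2 scale with a library left out, Grin1 -0.03 to 0.33 (-0.03 without WT replicate 2) and Got1l1 -0.44 to 0.41 (-0.22 without WT replicate 1 and -0.44 without QT7 replicate 1). QT7L1 against WT: Ccng2 had 0.52 to 1.06 and Grin1 -0.28 to 0.08 (0.08 without WT replicate 1). QT7 against QT7L1: Hapln4 had -1.67 to -0.25. Calls absent before appeared for Hapln4 in QT7 against WT with no filter (-1.44), DESeq2 (-1.46) and the replicate block (-1.56), and in QT7L1 against WT for A2m (0.82 and 0.82) and Ccng2 (0.77 and 0.76) with no filter and DESeq2. Over the contrasts the genes were chosen on, 167 values of a member in a refit moved by less than the replicate SD, 13 by more, and none turned direction. Genes called ranged, with a library left out, over 1272 to 5497 (QKO against WT, 4366 with all libraries), 1432 to 4355 (QT7 against QKO, 4449), 1704 to 5971 (QT7L1 against QKO, 4912), 52 to 2023 (QT7 against WT, 763), 0 to 517 (QT7L1 against WT, 123) and 0 to 1564 (QT7 against QT7L1, 1); the lowest came without QKO replicate 2 in the first 3, WT replicate 1 in QT7 against WT and QT7L1 replicate 2 in QT7L1 against WT. With no filter the last 3 counts were 2203, 1248 and 1030, and with DESeq2 1287, 575 and 235. The replicate block gave 2 genes in QT7 against QT7L1. Same-numbered libraries shared only a number: the correlation of their deviations was -0.205 to 0.164 between groups. The causes were not tested. Members at 15 to 43 counts in QKO (Grin1, Got1l1 and Hapln4) limit the precision of their folds.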
